A study of Callithrix jacchus with 4 samples.

Results

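The subject here is a set of 7 subunits of the GABA-A receptor, chosen by symbol from the 35205 rows of a gene count table: the alpha subunits GABRA2, GABRA3, GABRA4 and GABRA5, the beta subunits GABRB1 and GABRB2, and the delta subunit GABRD. All 7 have a row and all 7 passed the filter on low counts. The libraries come from brain tissue of common marmosets (Callithrix jacchus), a small New World monkey, taken on postnatal day 5. Of the 4 libraries, 2 are labelled wild-type and 2 mutant, the mutants carrying an FMR1 mutation introduced with CRISPR/Cas9. The design text speaks of forebrain, with cortex, striatum and hippocampus among the pieces taken, while each library is labelled only as brain. The labels name no allele, sex, litter or batch, and do not say that each library is a separate animal. A p-value here therefore rests on the spread between these libraries, which may be technical. The edgeR test used below takes much of that spread from other genes, so it is not the spread of a single gene alone.

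The GABA-A receptor is a chloride channel opened by the transmitter GABA and built from subunits of several classes arranged around a pore. Most receptors at synapses hold alpha, beta and gamma subunits, while receptors with delta lie outside the synapse and carry a lasting tonic current. During maturation of the forebrain, alpha 2, alpha 3 and alpha 5 are abundant early, and delta gains ground later. Loss of FMRP, the RNA-binding protein made from FMR1, causes fragile X syndrome, in which GABA-A signalling is one of the systems studied.

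Library totals ranged from 12331639 to 13455702 counts. FMR1 counts were 1144 and 966 in wild-type and 1062 and 1603 in mutant replicates. These overlap, so its RNA does not check the genotype labels. Forebrain neurons were present in all libraries: SLC17A7, the vesicular glutamate transporter of cortical neurons, lay between 952 and 1201 CPM (counts scaled to a common library size, with TMM factors). Wild-type replicate 1 stood apart in markers of the thalamus. Its summed level over 12 such genes was 416 CPM, against 169 CPM in wild-type replicate 2 and 163 and 175 CPM in the mutant libraries. None of the 12 was at 0 in all libraries, and 0 of the 11 tested passed in the main edgeR fit (4 had an unadjusted p under 0.05). All 11 had a negative log2 fold change, with a median of -0.86. With all 4 libraries, 3 of 11 passed as lower by edgeR with robust = FALSE and 7 of 12 without a low-count filter. By limma-voom 1 of 11 passed as lower. Mutant replicate 1 stood apart in TTR, a transport protein made by choroid plexus, at 94.97 CPM against 0.603 to 7.25 CPM in the other libraries.

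GABRD, the delta subunit of extrasynaptic receptors, was the member that passed the test. Its level was 38.0 and 60.2 CPM in wild-type replicates 1 and 2 and 26.9 and 25.2 CPM in mutant replicates 1 and 2, from between 339 and 740 counts per library. Pairs of values below follow the same order, replicate 1 first. Both mutant libraries lay below both wild-type libraries, and wild-type replicate 2 lay far above replicate 1. The counting intervals (95%, exact Poisson, counting error only) of wild-type replicate 1, 34.8 to 41.5 CPM, and of mutant replicate 1, 24.1 to 29.8 CPM, did not touch. GABRD fell by 0.92 on the log2 scale (SE 0.18, 95% interval -1.29 to -0.54; edgeR quasi-likelihood, Benjamini-Hochberg adjusted p = 0.00768), so that the mutant level was 0.530 of the wild-type level.

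GABRD lost its call when any 1 of 3 libraries was left out. The log2 fold change was -0.55 with wild-type replicate 2 left out (edgeR adjusted p = 0.0954), -0.96 with mutant replicate 1 left out (adjusted p = 0.208) and -0.87 with mutant replicate 2 left out (adjusted p = 0.242). Without wild-type replicate 1, the library rich in thalamic markers, it was -1.21 and passed (adjusted p = 1.16e-08). Delta is also known from granule cells of cerebellum and dentate gyrus and from thalamic relay cells, so markers of these cells were read in the same libraries. The thalamic list was highest in wild-type replicate 1, whereas GABRD was highest in wild-type replicate 2. The summed level of 9 cerebellar granule cell markers was 205 and 167 CPM in wild-type and 167 and 170 CPM in mutant libraries. BARHL1 and EN2 were at 0 or 1 count in every library. ETV1 alone gave 85.2 and 91.7 CPM of these sums in wild-type and 92.5 and 96.5 CPM in mutant libraries. ZIC1 was 42.5 and 14.1 CPM against 10.7 and 8.01 CPM, highest in wild-type replicate 1. With all 4 libraries, ZIC1 passed as lower by limma-voom and by edgeR with robust = FALSE or a replicate block, but not in the main edgeR fit. The log2 fold change was below 0 in 4 of the 7 tested and above 0 in 3. Of the 7 tested, 1 fell and 0 rose in the main edgeR fit, beside 1.57% and 0.661% of all genes tested. The gene that fell was CBLN1, a synapse organiser (log2 fold change -1.01, SE 0.26, edgeR adjusted p = 0.0333), highest in wild-type replicate 1. Its call was lost with DESeq2 (adjusted p = 0.175) and limma-voom (0.0672) and with wild-type replicate 1 (-0.50, 0.557), mutant replicate 1 (0.225) or mutant replicate 2 (0.271) left out. NEUROD1, a transcription factor of granule cells, was at 0.35 (unadjusted p = 0.0255, edgeR adjusted p = 0.280). The summed level of 7 dentate granule cell markers was 184 and 182 CPM against 164 and 173 CPM, and 0 of the 6 tested passed. C1QL3 and CALB1 gave 64.6 and 64.4 CPM of this sum in wild-type replicate 1. PROX1 was 20.8 and 12.2 CPM in wild-type and 16.5 and 17.5 CPM in mutant libraries. The log2 fold change was below 0 in 3 of the 6 tested and above 0 in 3. The part of these cell types in the GABRD result was not tested, and in bulk tissue fewer cells of a type and less RNA per cell cannot be told apart.

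**Figure D1:**
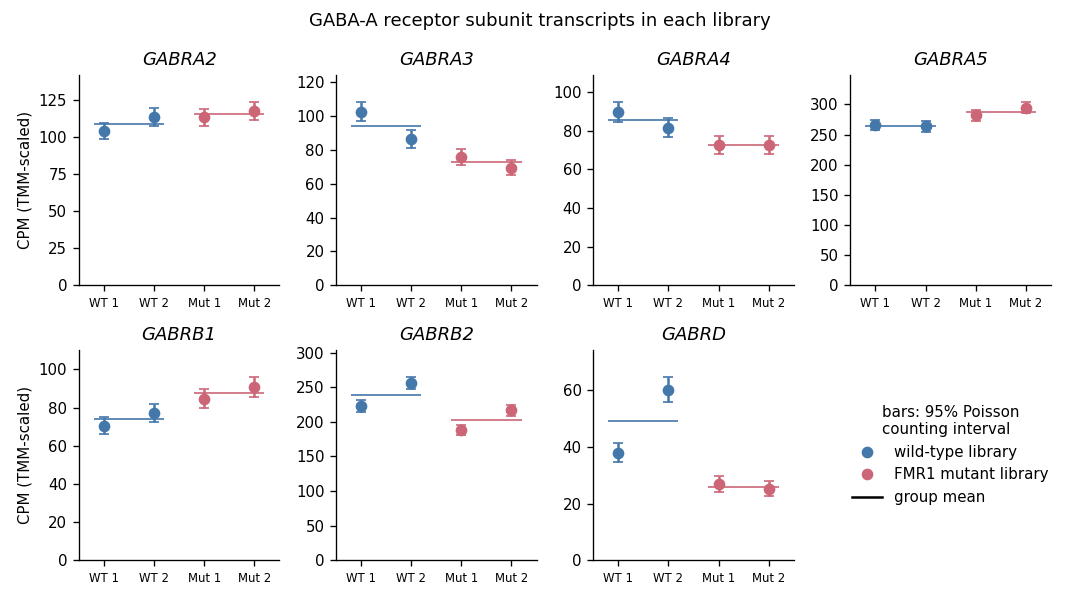
CPM (TMM-scaled, axis from 0) of the 7 subunits in each of the 4 libraries, with 95% Poisson counting intervals as bars and the mean of each group as a line. GABRD lay at 38.0 and 60.2 CPM in wild-type and 26.9 and 25.2 CPM in FMR1 mutant libraries, the greatest difference in fold among the 7, while GABRB2 and GABRA5 differed by as much or more in CPM.

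The remaining 6 members did not pass. Of the 7, 1 fell and 0 rose, where 1.57% of the 16956 genes tested fell and 0.661% rose. At an unadjusted p under 0.05, GABRD and GABRA3 were lower and 0 members were higher (7.75% and 5.64% of all genes tested). The median log2 fold change of the members was -0.24, beside -0.0040 over all genes tested. The values of the groups did not overlap in any of the 7, being lower in the mutant libraries for 4 and higher for 3. Among all genes tested 43.1% had such separated groups, 21.8% lower and 21.4% higher.

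The early alpha subunits lay on both sides of 0. GABRA3, a subunit of developing cortex that remains in the thalamic reticular nucleus, was 102 and 86.1 CPM in wild-type and 75.6 and 69.5 CPM in mutant libraries. GABRA3 did not pass the test (log2 fold change -0.38, SE 0.13, 95% interval -0.64 to -0.12, edgeR adjusted p = 0.128). Wild-type replicate 1 was the highest library for GABRA3, as it was for the thalamic markers, and without it the log2 fold change was -0.25. Without wild-type replicate 2 it was -0.50 (edgeR adjusted p = 0.0582).

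GABRA2, found at many forebrain synapses and on the axon initial segment, was 104 and 113 CPM in wild-type and 113 and 118 CPM in mutant libraries. Wild-type replicate 2, at 113.4 CPM, and mutant replicate 1, at 113.4 CPM, were nearly equal, and their counting intervals overlapped. The log2 fold change was 0.09 (SE 0.12, 95% interval -0.16 to 0.33, edgeR adjusted p = 0.823). GABRA5, an extrasynaptic alpha subunit best known from hippocampal pyramidal cells, was 265 and 264 CPM in wild-type and 282 and 294 CPM in mutant libraries. Both mutant libraries were higher and the wild-type pair was tight, but GABRA5 did not pass (log2 fold change 0.12, SE 0.11, 95% interval -0.11 to 0.35, edgeR adjusted p = 0.707).

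GABRA4, an alpha subunit that pairs with delta in forebrain neurons, was 89.5 and 81.5 CPM in wild-type and 72.7 and 72.6 CPM in mutant libraries. The mutant libraries were both lower and almost identical. The log2 fold change was -0.24 (SE 0.13, 95% interval -0.49 to 0.02, edgeR adjusted p = 0.427). GABRD and GABRA4 thus shared a sign, with a fall that passed in GABRD and a smaller difference that did not in GABRA4.

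The beta subunits, which with alpha form the GABA binding site, lay on opposite sides. GABRB1 was 70.5 and 77.0 CPM in wild-type and 84.4 and 90.7 CPM in mutant libraries (log2 fold change 0.25, SE 0.13, 95% interval -0.01 to 0.50, edgeR adjusted p = 0.393). GABRB2, which gains ground with maturation, was 223 and 256 CPM in wild-type and 188 and 217 CPM in mutant libraries (log2 fold change -0.24, SE 0.12, 95% interval -0.48 to 0.0003, edgeR adjusted p = 0.374). Wild-type replicate 1 and mutant replicate 2 were close for GABRB2, at 222.8 and 216.7 CPM. The ratio of GABRB1 to GABRB2 counts was 0.317 and 0.301 in wild-type and 0.449 and 0.419 in mutant libraries. The groups did not overlap in this ratio, which was chosen after the values were seen. GABRB1 made up 24.0% and 23.1% of the counts of the pair in wild-type and 31.0% and 29.5% in mutant libraries.

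**Figure D2:**
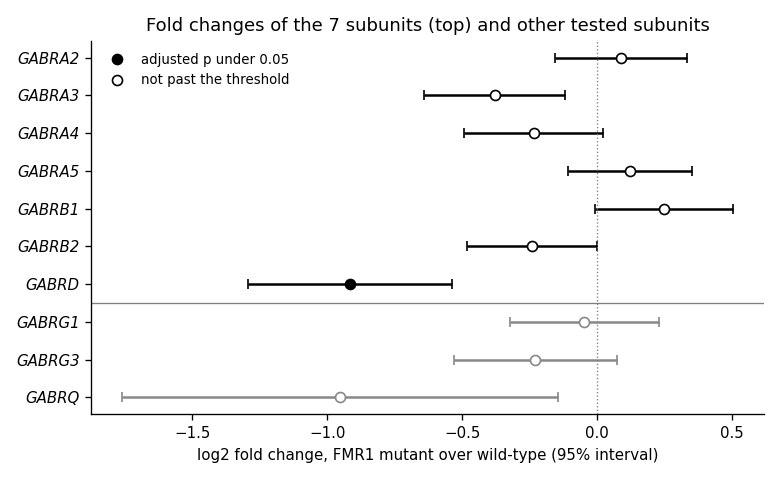
Log2 fold change (FMR1 mutant over wild-type) with its 95% interval for the 7 subunits, above the line, and for the 3 other subunits shown that passed the low-count filter, below it. The filled point, GABRD at -0.92, is the 1 subunit shown with an adjusted p under 0.05, and GABRB1 and GABRB2 lie on opposite sides of 0.

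The signs of all 7 held whichever library was left out of the fit, which follows from groups that do not overlap. GABRA5 varied least, between 0.09 and 0.15, and GABRD varied most, between -1.21 and -0.55. GABRB2 ranged from -0.35 to -0.14 and GABRB1 from 0.19 to 0.31. None of the 6 members other than GABRD passed in any of these 4 fits (lowest edgeR adjusted p 0.0582, for GABRA3), and GABRD passed in 1. Of all genes, 2.09% passed without wild-type replicate 1, 3.31% without wild-type replicate 2, 0.961% without mutant replicate 1 and 1.30% without mutant replicate 2.

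**Figure D3:**
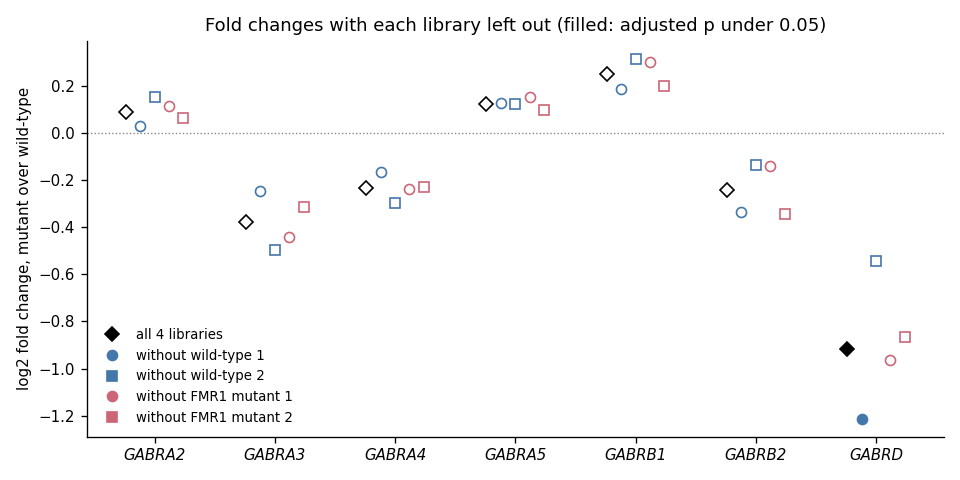
Log2 fold change of each subunit with all 4 libraries (diamonds) and with each library left out in turn, filled where the adjusted p was under 0.05. No subunit crosses 0, which follows from groups that do not overlap, and GABRD shrinks to -0.55 without wild-type replicate 2.

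The balance of early to late subunits was taken within each library as the counts of GABRA2, GABRA3 and GABRA5 over those of GABRD. Counts are not divided by transcript length, so the ratio compares libraries with each other and not subunits with each other. It was 12.4 and 7.69 in wild-type and 17.5 and 19.1 in mutant libraries. Both mutant libraries had more early counts per delta count than both wild-type libraries. The ratio rests on the same GABRD counts as the fold change above and is no second line of evidence for it.

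On the log2 scale the balance was 3.29 ± 0.49 (SD, n = 2) in wild-type and 4.20 ± 0.09 (SD, n = 2) in mutant libraries, a difference of 0.91, or 1.87-fold (exact two-sided permutation test, p = 0.333, the smallest that 2 against 2 libraries allow). The difference is larger than the gap of 0.69 between the wild-type libraries. Without wild-type replicate 2 it was 0.56, and without wild-type replicate 1 it was 1.25. GABRD took 7.46% (95% Clopper-Pearson interval 6.84% to 8.11%) and 11.5% (10.7% to 12.3%) of these counts in wild-type libraries. In mutant libraries it took 5.40% (4.86% to 5.97%) and 4.96% (4.46% to 5.51%).

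The early subunits were not alike against GABRD. The ratio of GABRA5 to GABRD was 6.98 and 4.38 in wild-type and 10.5 and 11.7 in mutant libraries, a log2 difference of 1.00. That of GABRA2 to GABRD was 2.74 and 1.88 against 4.22 and 4.68, a log2 difference of 0.97. For GABRA3, which was itself lower in the mutant libraries, the ratio was 2.69 and 1.43 against 2.81 and 2.76, and the log2 difference of 0.51 was smaller than the gap of 0.91 between the wild-type libraries. Wild-type replicate 1 lay close to both mutant libraries in the ratio of GABRA3 to GABRD.

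**Figure D4:**
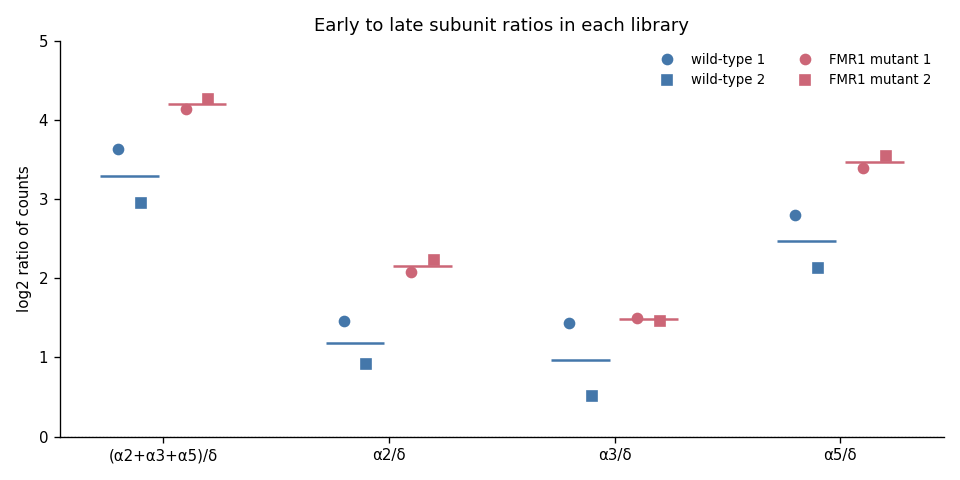
Log2 ratio of early (alpha 2, 3 and 5) to delta subunit counts in each library, for the 3 early subunits together and for each alone, with group means as lines. Mutant libraries lie above both wild-type libraries in all 4 ratios, and by a small distance from wild-type replicate 1 (2.81 and 2.76 against 2.69, before taking logs) for alpha 3.

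Among the counts of the 4 alpha members, GABRA5 took 47.3% and 48.4% in wild-type and 51.9% and 53.1% in mutant libraries. GABRA3 took 18.2% and 15.8% against 13.9% and 12.5%, and GABRA4 15.9% and 14.96% against 13.4% and 13.1%. GABRA2 took 18.5% and 20.8% against 20.9% and 21.3%, with wild-type replicate 2 and mutant replicate 1 almost equal. All 4 shares had groups that did not overlap, where 43.1% of all genes tested had separated groups in CPM. The shares are parts of the same sum, so they are not separate results. Each reached the smallest exact permutation p of 0.333, which is also 0.333 after Benjamini-Hochberg adjustment over the 4. The share of GABRA5 was 4.64 percentage points higher in the mutant libraries, and between 4.02 and 5.26 points higher with any 1 library left out.

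**Figure D5:**
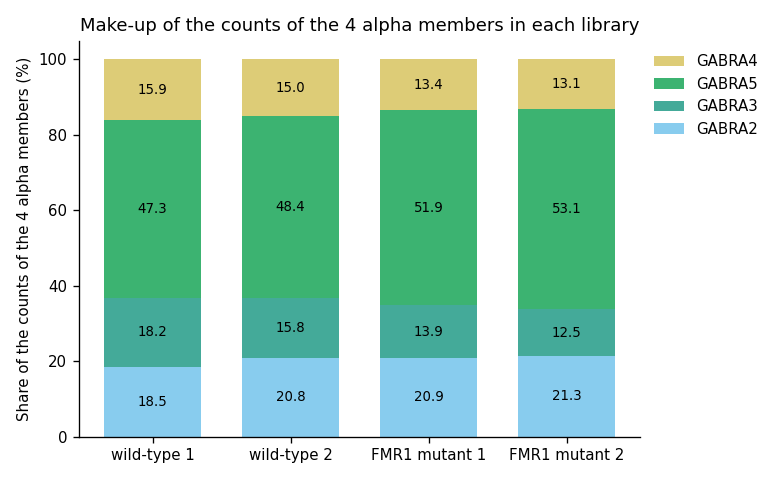
Share of each of the 4 alpha members in their summed counts, in percent, for each library. GABRA5 takes 47.3% and 48.4% in wild-type and 51.9% and 53.1% in mutant libraries, while GABRA3 takes less in the mutant libraries.

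Many GABA-A subunit genes stand in clusters, and the 16 subunit genes looked for were found in the RefSeq table of the calJac240_pri assembly, which was used for gene order only. GABRB1, GABRA4, GABRA2 and GABRG1 follow each other with at most 1 other protein-coding gene between neighbours. Their log2 fold changes were 0.25, -0.24, 0.09 and -0.05, so neighbours differed in sign and none passed. GABRA5 stands near GABRG3, a gamma subunit, with 1 other protein-coding gene between them. GABRG3 was at -0.23 (SE 0.15, edgeR adjusted p = 0.548), on the other side of 0 from GABRA5. GABRB2 stands next to GABRA6, and GABRA3 between GABRE and GABRQ. None of the other 15 is on the chromosome of GABRD.

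Of 9 other GABA-A and rho subunits read here, 3 were tested and 0 passed by edgeR, 1 of them being lower at an unadjusted p under 0.05. That was GABRQ, the theta subunit, counted 35 and 70 times in wild-type and 22 and 35 times in mutant libraries (log2 fold change -0.95, SE 0.40, edgeR adjusted p = 0.259). Like GABRD it was highest in wild-type replicate 2. Its log2 fold change was -0.30 without that library (adjusted p = 0.877), -1.41 without wild-type replicate 1 (0.0265), -0.68 without mutant replicate 1 (0.763) and -1.30 without mutant replicate 2 (0.307). GABRA6, the alpha subunit of cerebellar granule cells, was counted 0, 4, 11 and 4 times and was not tested.

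Around the receptor, 6 lists of partner genes, the other subunits included, held 52 tested genes, of which 1 fell and 0 rose, a share close to the 1.57% of all genes tested that fell. Their log2 fold change was below 0 in 36 and above 0 in 16, with a median of -0.12. Over all genes tested 50.7% were below 0. The gene that fell was GAD2, an enzyme that makes GABA at nerve endings, at 133 and 150 CPM in wild-type and 97.6 and 109 CPM in mutant libraries (log2 fold change -0.46, SE 0.12, edgeR adjusted p = 0.0352). The call on GAD2 was lost with wild-type replicate 2 left out (adjusted p = 0.249), with mutant replicate 1 left out (0.285) and with mutant replicate 2 left out (0.0574). All 8 genes of GABA synthesis, transport and breakdown had a negative log2 fold change, with a median of -0.22, and 7 did not pass.

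Genes that hold the receptor at synapses gave no call. Among 12 scaffold and assembly genes, 0 passed by edgeR and 0 reached an unadjusted p under 0.05, with a median of -0.03. GPHN, which encodes the scaffold gephyrin, was at 0.10 (SE 0.13), and DMD, the gene of dystrophin at inhibitory synapses, had the smallest p at 0.27 (SE 0.13, edgeR adjusted p = 0.376). Among 17 trafficking genes 0 passed by edgeR and 2 were lower at an unadjusted p under 0.05 (median -0.03). TRAK2, a motor adaptor, came first at -0.32 (SE 0.12, edgeR adjusted p = 0.198).

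Other inhibitory receptors gave no call in the main fit of all 4 libraries. Among 8 GABA-B receptor, KCTD and potassium channel genes, 0 passed by edgeR and 3 had an unadjusted p under 0.05, 2 of them lower. KCTD8, an auxiliary subunit of the GABA-B receptor, was at -0.67 (SE 0.23, edgeR adjusted p = 0.150). Among 4 tested glycine receptor genes 0 passed by edgeR and 2 were lower at an unadjusted p under 0.05. GLRA1 was counted 69 and 17 times in wild-type and 12 and 12 times in mutant libraries (log2 fold change -1.87, SE 0.54, edgeR adjusted p = 0.0779). Its high value was in wild-type replicate 1, the library rich in thalamic markers, and without that library its log2 fold change was -0.61 (adjusted p = 0.831). Without wild-type replicate 2 GLRA1 passed, at -2.51 (edgeR adjusted p = 3.20e-05).

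Markers of the neurons that carry or release GABA were read beside the subunits. Of 14 interneuron markers 2 fell and 0 rose, beside 1.57% and 0.661% of all genes tested. The 2 were GAD2, given above, and PVALB, the calcium buffer of fast-spiking interneurons, which was 5.05 and 6.51 CPM in wild-type and 2.37 and 1.63 CPM in mutant libraries (log2 fold change -1.53, SE 0.34, edgeR adjusted p = 0.00974). The call on PVALB was lost with DESeq2 (adjusted p = 0.0937) and without mutant replicate 2 (-1.28, 0.161). NPY, a peptide of another interneuron class, was at 0.32 (unadjusted p = 0.0165, edgeR adjusted p = 0.221). The summed level of the 14 was 1232 and 1227 CPM against 1195 and 1136 CPM, and none was at 0. Of 9 tested markers of newborn and migrating neurons, 2 rose and 0 fell, beside the 0.661% of all genes tested that rose. The summed levels were 5178 and 4363 CPM in wild-type and 6071 and 6207 CPM in mutant libraries. The log2 fold change was above 0 in 8 of the 9 and below 0 in 1. That 1 was IGFBPL1 (-0.37, unadjusted p = 0.0393, edgeR adjusted p = 0.339). Those that rose were DCX, a microtubule protein of migrating neurons (log2 fold change 0.50, edgeR adjusted p = 0.0241), and CD24, a surface protein of young neurons (0.63, 0.00926). Both calls were lost without wild-type replicate 2 (adjusted p = 0.286 and 0.169) and without mutant replicate 2 (0.255 and 0.179), and that on CD24 also without mutant replicate 1 (0.235). Wild-type replicate 2, the highest library for GABRD, had the lowest summed level of this list, of which STMN2 gave 2232 CPM. NEUROD1 and ELAVL4 were lowest in wild-type replicate 1, and IGFBPL1 was highest in wild-type replicate 2. The other tested genes of the list were lowest in wild-type replicate 2.

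Markers of glia and of other cells were read in the same libraries, where 1.57% of all genes tested fell and 0.661% rose. Of 13 markers of mature oligodendrocytes, the myelin-forming cells, 12 fell and 0 rose, in the full set of libraries and with any 1 left out. Their summed level was 3675 and 3599 CPM in wild-type and 1401 and 1348 CPM in mutant libraries. Of 9 astrocyte markers 2 fell, and all 9 had a negative log2 fold change (summed level 5313 and 5142 CPM against 3809 and 4105 CPM). Of 9 microglia markers 3 fell, and 0 did so without mutant replicate 2 (167 and 175 CPM against 134 and 89.6 CPM). Among 10 cortical projection neuron markers 1 rose, NEUROD6, and 0 did so with any 1 library left out. None of the 10 striatal, 7 endothelial and pericyte and 6 choroid plexus markers passed in the main edgeR fit. Before adjustment, 2, 2 and 1 of them had a p under 0.05, each lower in the mutant libraries. In other edgeR fits of all 4 libraries, TTR passed as higher with robust = FALSE and OTX2 as lower with a replicate block. The part of these cells in the values of the subunits was not tested.

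The pattern of GABRD over the 4 libraries was compared with that of 10255 genes of at least 10 CPM that carry a symbol. The closest was TUBA4A, an alpha tubulin, with a root mean square difference of 0.07 in centred log2 CPM, at 64.4 and 114 CPM in wild-type and 50.8 and 45.3 CPM in mutant libraries. COL1A1, a collagen of meninges and vessels, SLC6A7, the brain proline transporter, the cadherin CDH22 and SMIM43 followed, at 0.10 to 0.11. Over 4 libraries such likeness is a description. Of the 5, SLC6A7 (log2 fold change -1.06, edgeR adjusted p = 9.68e-04), CDH22 (-0.95, 0.00241) and SMIM43 (-0.82, 0.00730) fell, while TUBA4A (-0.89, 0.310) and COL1A1 (-0.74, 0.0979) did not pass. All 5 were highest in wild-type replicate 2, which, like their lower mutant values, follows from choosing them for their likeness to GABRD.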

How the data were processed

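Poly(A) RNA-seq libraries were made with a directional kit, per the labels' protocols. The authors deposited raw counts per gene, whole numbers with no normalization. Trimmomatic 0.38 and STAR 2.7.10a are listed, per the submitters' processing notes. The sources used here do not state which tool counted the reads, on what build and annotation, or with what strand setting. From the deposited counts, genes passing filterByExpr (minimum count 10) were scaled by TMM and compared with the quasi-likelihood test of edgeR 4.0.16 (R 4.3.3, robust = TRUE), with Benjamini-Hochberg adjustment over all 16956 genes at 0.05. This test moderates the spread of each gene towards that of other genes (median prior degrees of freedom 31.6, residual degrees of freedom 2). The SE is the log2 fold change divided by the square root of F. Ratios and shares were computed per library and compared by exact permutation. The test was checked on simulated data. Alternatives were RLE and upper-quartile scaling, DESeq2 1.42.0, limma-voom (limma 3.58.1), robust = FALSE, other filters, a replicate block and each library left out, with the gene set kept. Libraries of 12331639 to 13455702 counts give GABRD 339 to 740 counts. Replicates differed beyond sampling noise (chi-square per degree of freedom 7.28 and 6.90).

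All 7 members and the 5 genes closest to GABRD were named. For each of the 6 lists of partner genes, the tested members that passed were named or, where none did, the 1 with the smallest p. CBLN1, NEUROD1, PVALB, NPY, DCX, CD24, NEUROD6, SLC17A7, TTR, GPHN and the cluster neighbours were added after their values were seen. So were the other single genes named from the marker lists, ZIC1, ETV1, BARHL1, EN2 and OTX2 among them. The members and lists were chosen with earlier results of these data known. Lengths of transcripts and sequences were not used here. Some subunits, and the results that need them, are not reported here; they stay in the fits over all genes.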

Additional observations from a re-analysis of the deposited data

How the results depend on the processing

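The log2 fold changes of the 7 subunits kept their sign under all 12 alternatives run, and 6 of the 7 passed in none. GABRD passed under 9 (log2 fold change -1.21 to -0.87, adjusted p 1.16e-08 to 0.00754), among them DESeq2 (adjusted p = 0.00522) and limma-voom (0.00590). With 1 library left out, the count of members called ranged from 0 to 1. The count over the neighbouring lists, 1 in the main analysis, ranged from 0 to 2 with 1 library left out, and was 2 without a low-count filter and 2 with the replicate block, GLRA1 being added in both. The early to late difference ranged from 0.56 to 1.25 with 1 library left out, and was 0.83 as a mean of log2 CPM and 0.99 with GABRA2 and GABRA5 as early, a choice made after seeing the data. The replicate block gave GABRD at -0.88 and a balance of 0.91. Same-numbered libraries barely deviated together (r = 0.03 across genes), which does not settle whether the numbers pair them. With the block 493 genes passed, and 378 did without it. Over all genes, 163 passed without mutant replicate 1, 220 without mutant replicate 2, 244 by DESeq2 and 633 without a low-count filter.

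Leaving out a library leaves 1 library in its group, which is assumed to vary like the other group. Where the groups do not overlap, leaving out 1 library cannot reverse the sign of a difference of group means. With 2 libraries a group, the SE of the 7 log2 fold changes lay between 0.11 and 0.18. Subunits of low count, GABRA6 among them, were under the filter.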
